A study of Bos taurus with 16 samples.

Results

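Subcutaneous white adipose tissue was compared with gluteus medius muscle, a skeletal muscle of the rump, within each of 8 calves. All 16 libraries of the series entered the comparison, as 8 adipose and 8 muscle libraries, and each adipose library was paired with the muscle library that carries the same number in its title. The calves were Holstein bulls with a stated age of 21 days, given in the labels without a time point. The study's abstract gives this age for the calves that were fed. Its methods give a lower age before an adaptation period that preceded the feeding, so the tissues came from older calves. The 4 pairs numbered 1 to 4 came from Control calves that drank saline in their milk replacer (CON), and the pairs numbered 5 to 8 came from calves given 5-hydroxytryptophan (5-HTP), the direct precursor of serotonin, for 10 days, after which the tissues were taken. No calf carried a transgene or an induced disease, the adipose was taken near the tail head and pelvis, and both tissues were whole pieces that hold several cell types. A lower level of a transcript can therefore mean fewer cells of a type or less RNA per cell, and these cannot be told apart here.

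White adipose tissue stores triglyceride in adipocytes and also holds vessels, fibroblasts and immune cells, among which tissue macrophages make C1q and other complement proteins. Skeletal muscle consists mainly of long fibres packed with sarcomeres, the repeating contractile units that titin spans from end to end. Muscle fibres are known for devoting much of their mRNA to a small set of contractile and energy proteins, while adipose tissue spreads its mRNA over more genes.

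The values are read counts per locus, and a locus is a region of merged transcript models, either with an Ensembl identifier or with a merged number alone. Of 42862 loci, 20534 reached 10 counts in 4 or more libraries and were tested, of which 14662 had an Ensembl identifier and 5872 had a merged number only. Locus totals ranged from 15058963 to 22156739 counts in adipose and from 18017558 to 25077800 in muscle. The adipose library of calf 2 and the muscle library of calf 1 stood apart from the others of their tissue. Their median absolute log2 distance to the rest was 0.56 and 0.51, against 0.26 to 0.36 for the other adipose and 0.23 to 0.27 for the other muscle libraries. CPM below means counts per 1000000 counts after trimmed mean (TMM) scaling, and log2 ratios are adipose over muscle, so a negative value means a higher level in muscle. The deposited files pair no identifier with a gene name. Symbols were known for 30 loci, which the study had listed for a difference between 5-HTP and CON calves in these same libraries.

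Counts were concentrated in far fewer loci in muscle than in adipose. The single most abundant locus took 0.698% to 1.61% of an adipose library, with a median of 1.19%, and 4.05% to 7.10% of a muscle library, with a median of 5.89%. The 10 most abundant loci of each library together held 5.55% to 7.59% in adipose (median 6.43%) and 21.3% to 27.0% in muscle (median 24.3%). The adipose and muscle libraries did not overlap in either measure. Within calves the share of the first 10 loci was lower in adipose by a mean of 17.7 percentage points ± 2.14 (SD, n = 8 pairs), in 8 of 8 pairs, with an exact two-sided sign-flip permutation p of 0.0078, the smallest that 8 pairs allow. Between 583 and 886 loci, median 768, were needed to reach 50% of the total in adipose, against 48 to 106, median 79, in muscle. The difference was 680 loci ± 106 (SD, n = 8 pairs; exact sign-flip permutation p = 0.0078), and 90% of the counts lay in 5645 to 6282 loci in adipose and 2838 to 3811 in muscle. After every library was thinned to the smallest total, 17440 to 20084 loci had at least 10 counts in adipose and 13620 to 14926 in muscle. The curves of cumulative share show this for every library, and the steepest muscle curve belongs to calf 1, 1 of the libraries that stood apart.

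**Figure D1:**
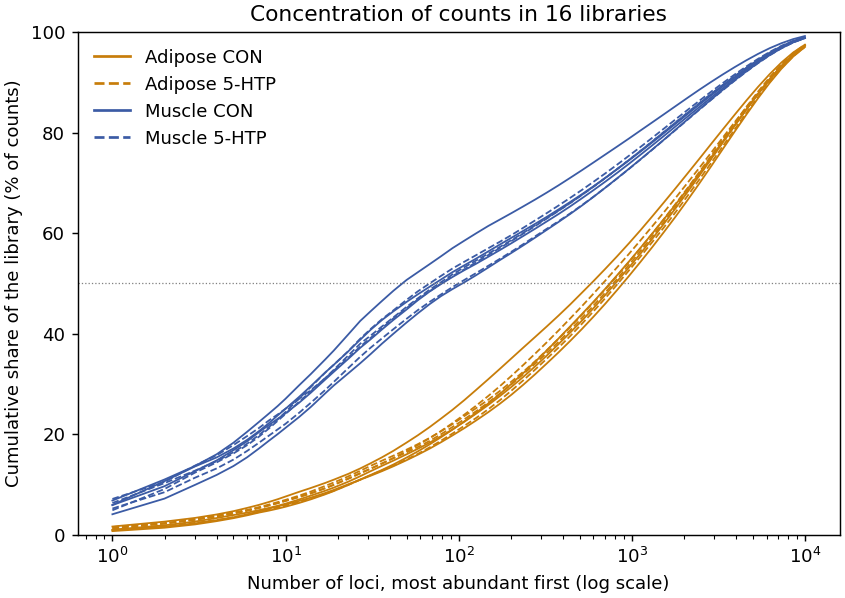
Cumulative share of the counts (%, y axis) against the number of loci ordered from the most abundant (x axis, log scale), 1 line per library, solid for CON and dashed for 5-HTP. The muscle lines cross the dotted 50% line at 48 to 106 loci and the adipose lines at 583 to 886.

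Of the 10 most abundant loci of muscle, 7 held at most 0.00877% of the counts of any adipose library, and the other 3 were abundant in adipose as well. The locus ENSBTAG00000046332 ranked first in all 8 muscle libraries, where it gave 872694 to 1513364 counts (57673 to 126456 CPM), while the adipose libraries held 1 to 87 counts. ENSBTAG00000018204, second in muscle by mean share, gave 503185 to 1050815 counts in muscle and 0 counts in 6 of the 8 adipose libraries, with 85 counts in the adipose library of calf 6 and 1 in that of calf 4. Both loci were separated without overlap, in 8 of 8 pairs, with fitted log2 ratios of −17.68 (SE 0.71) and −18.90 (SE 0.98, mostly set by the small constant that the fit adds to counts of 0). In adipose the pattern was milder. ENSBTAG00000037526 gave 80516 to 135161 counts in the adipose libraries and 1 to 21 in muscle, a log2 ratio of 12.81 ± 0.46 (SE), and ENSBTAG00000014534 gave 2815 to 4674 CPM in adipose and 565 to 1019 CPM in muscle, a log2 ratio of 2.38 ± 0.18 (SE). These were the first loci by rank in adipose that differed at least 2-fold in its favour, as did 6 of its leading 10. As loci picked for a high share in a tissue tend to be higher there, these ratios are a description. The other 4 of the 10 leading adipose loci, which included the first 3 by rank, were higher in muscle in 8 of 8 pairs after TMM scaling, with log2 ratios of −1.49 to −1.97. In raw share they differed less. The first held 0.679% to 1.61% of adipose and 0.814% to 1.92% of muscle counts, so that the tissues overlapped in raw share. Counts were not divided by transcript length, so the order of loci is one of counts and not of molecules.

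The 100 most abundant muscle loci held 49.6% to 57.4% of the muscle counts and 6.79% to 8.81% of the adipose counts. The 100 most abundant adipose loci held 20.3% to 24.3% of the adipose counts and 10.4% to 14.2% of the muscle counts. The lists had 2 loci in common among the first 10, 22 among the first 100 and 478 among the first 1000. In another cut, the 1468 loci at least 8-fold higher in muscle made up 51.1% to 56.6% of the counts of a muscle library (median 54.1%) and 1.52% to 1.81% of an adipose library. The 1699 loci at least 8-fold higher in adipose made up only 7.75% to 9.69% of adipose and 0.126% to 0.174% of muscle counts. The 10687 loci that differed less than 2-fold between tissues held 54.4% to 57.0% of adipose counts and 22.3% to 26.3% of muscle counts. These classes were drawn from the same fitted ratios and are given as a description.

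Across all loci tested, 7063 were higher in adipose (34.4%) and 6128 higher in muscle (29.8%), and 7343 did not pass (edgeR quasi-likelihood test with the calf as a block, Benjamini-Hochberg FDR at or under 0.05). Of these, 5133 (25% of the loci tested) and 3971 (19.3%) differed at least 2-fold. The libraries of the tissues did not overlap at 3000 loci that were higher in adipose (14.6%) and 3637 higher in muscle (17.7%). The direction was the same in all 8 pairs at 4990 loci for adipose (24.3%) and 4627 for muscle (22.5%). Without TMM scaling, that is with total counts alone, the median log2 ratio moved by 1.204, from 0.14 to 1.34, and the split became 14557 higher in adipose against 2361 higher in muscle (86.0% of calls in favour of adipose, against 53.5%). A locus fitted as higher in muscle by less than this shift therefore changes direction with the scaling, and the ratios in this text are relative to the TMM centre. Loci with an Ensembl identifier divided evenly, with 4779 higher in adipose and 4960 in muscle, and a median log2 ratio of −0.01. Loci with a merged number only leaned to adipose, with 2284 against 1168 and a median of 0.68. The lean also followed abundance. In the lowest 20% of loci by mean CPM 39.1% of loci were higher in adipose and 11.8% in muscle, and in the highest 20% it was 25.9% and 51.3%. Loci could pass the count filter through either tissue alone, and a given CPM stood for more counts in adipose. Of the loci with a merged number only, 2845 passed in adipose and not in muscle, and 735 the reverse. With the filter required in each tissue, the median log2 ratio over all loci was 0.028. How far the filter shaped these leans was not tested.

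**Figure D2:**
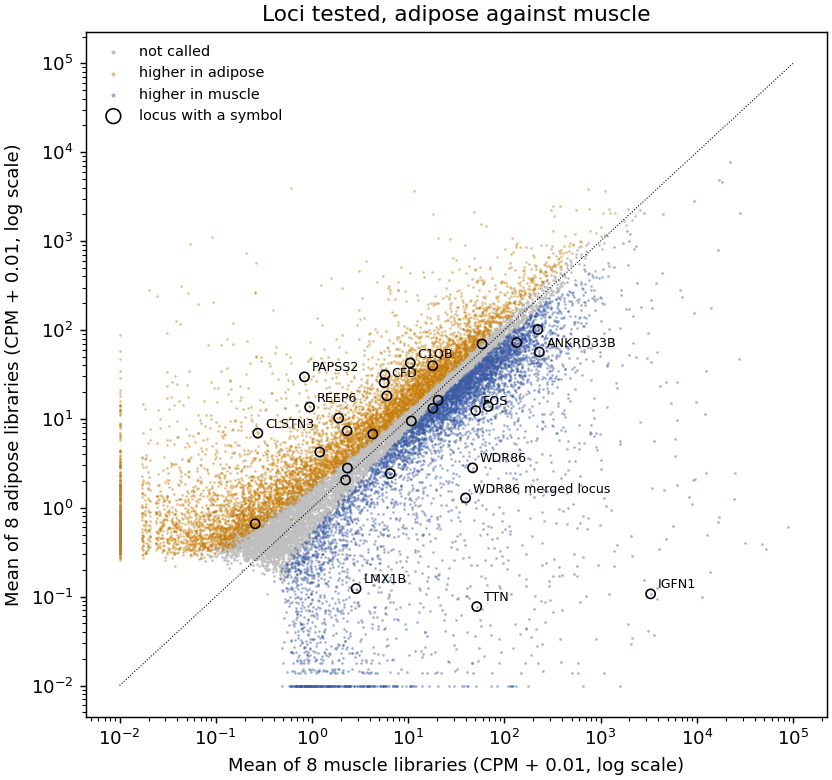
Mean CPM of the 8 adipose libraries (y axis) against that of the 8 muscle libraries (x axis), both on log scales after adding 0.01, for the 20534 loci tested. Orange loci were higher in adipose (7063), blue loci higher in muscle (6128), grey loci not called, and open circles mark the 30 loci with a symbol, with IGFN1 and TTN far to the right of the diagonal and PAPSS2, REEP6 and CLSTN3 far above it.

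Among the 30 loci with a symbol, 11 were higher in adipose, 9 higher in muscle and 10 were not called, so that 66.7% were called against 64.2% of all loci tested. Their libraries did not overlap at 11 loci (32.3% of all loci tested did not overlap), and their median log2 ratio was 0.26 against 0.14 for all loci. Both shares are near those of all loci. Of the 231 genes in 18 lists of tissue, cell type and pathway genes, 15 had a locus with a symbol, and these fell in 7 lists. None of the 15 adipocyte genes listed, ADIPOQ and PLIN1 among them, could be matched, so the adipose label was not checked against adipocyte markers here.

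Both sarcomere genes that could be matched, of 32 listed, were higher in muscle. IGFN1, an immunoglobulin and fibronectin domain protein of the skeletal muscle Z-disc, measured 1595 to 7743 CPM in muscle (median 2853). In adipose it had 0 counts in 5 of 8 libraries, all 4 CON libraries included, and 6 to 8 counts in the other 3. Its fitted log2 ratio was −14.83 ± 0.64 (SE). The merged locus that the study names TTN, after the giant protein that acts as the spring of the sarcomere, measured 22.3 to 103 CPM in muscle (median 45.8). In adipose it had 0 counts in 5 libraries and 1, 5 and 11 counts in those of calves 6, 7 and 5, with a log2 ratio of −9.18 ± 0.56 (SE, edgeR quasi-likelihood adjusted p = 4.98e-10). The tissues did not overlap at either gene. Both passed the count filter through the muscle libraries alone and were named because the study had listed them for muscle, so they are no independent check of the muscle label.

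The other 7 loci with a symbol that were higher in muscle belonged to LMX1B, WDR86, ASCC2, ANKRD33B, ANKRD37 and FOS. LMX1B, a LIM homeodomain transcription factor known from limb and kidney development, was low throughout at 0.919 to 5.55 CPM in muscle and 0 to 0.237 CPM in adipose, where no library had more than 7 counts (log2 ratio −4.49 ± 0.60, SE). WDR86, a WD repeat protein, was represented by 2 loci. Its Ensembl locus measured 22.1 to 88.4 CPM in muscle and 1.89 to 4.03 CPM in adipose (log2 ratio −3.94 ± 0.28, SE), and its merged locus 10.4 to 76.1 and 0.807 to 1.65 CPM (−4.68 ± 0.29, SE). The merged locus named ASCC2, a subunit of a transcriptional coactivator complex also known from alkylation repair, measured 43.8 to 124 CPM in muscle and 10.96 to 17.3 CPM in adipose (−2.24 ± 0.17, SE). The ankyrin repeat gene ANKRD33B measured 185 to 301 CPM in muscle and 19.5 to 124 CPM in adipose (−2.22 ± 0.23, SE). At each of these 5 loci every muscle library lay above every adipose library. LMX1B passed the count filter through the muscle libraries alone, so its separation is only a description. ANKRD37, an ankyrin repeat gene induced by low oxygen in other cells, overlapped between tissues, with 2.99 to 10.6 CPM in muscle and 0.98 to 6.22 CPM in adipose, and was higher in muscle in 7 of 8 pairs (−1.57 ± 0.34, SE, adjusted p = 0.000767 by edgeR's quasi-likelihood test). With total counts its log2 ratio was −0.37 and it was no longer called. The study had listed LMX1B, both WDR86 loci, ASCC2 and ANKRD37 as higher in the muscle of 5-HTP calves, in these same libraries. It listed ANKRD33B as higher in their adipose. In the CON pairs alone the log2 ratio was −3.42 at LMX1B, −3.32 and −3.84 at the WDR86 loci, and −1.86 at ASCC2. At ANKRD33B it was −2.83, and at ANKRD37 −0.82 ± 0.41 (SE).

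Of the immediate early genes, transcription factors that cells switch on within minutes of a stimulus, FOS was called and EGR1 was not. FOS measured 1.41 to 36.1 CPM in adipose (median 11.2) and 9.77 to 201.1 CPM in muscle (median 32.7), and its log2 ratio was −1.76 ± 0.64 (SE, edgeR quasi-likelihood adjusted p = 0.0235). The tissues overlapped and 6 of 8 pairs were higher in muscle. The call was lost without calf 1, 3 or 8 (adjusted p 0.0518 to 0.074), without calves 1 and 2 together, and with total counts. EGR1 measured 20.9 to 299 CPM in adipose and 19.5 to 1191 CPM in muscle, with 4 pairs higher in each direction and a log2 ratio of −0.06 ± 0.62 (SE). The highest value of both genes was in the muscle library of calf 2. The study had listed both as lower in the muscle of 5-HTP calves, in these same libraries. At FOS the log2 ratio was −2.77 ± 0.78 (SE) in the CON pairs and −0.56 ± 0.80 (SE) in the 5-HTP pairs. At EGR1 it was −1.32 ± 0.77 (SE) and 1.15 ± 0.75 (SE).

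Macrophage and complement genes were mostly higher in adipose, 4 of the 5 that could be matched from a list of 14, against 34.4% of all loci. All 5 could be matched because the study had listed them as lower in the muscle of 5-HTP calves. Those libraries are used here, so this share does not stand for the whole list. In the CON pairs alone the log2 ratios were 1.90 at C1QB, 1.93 at SIGLEC1, 0.99 at CSF1, 2.05 at CFD and −0.07 at C1S. C1QB, a chain of the C1q molecule that starts the classical complement pathway, measured 10.7 to 55.1 CPM in adipose (median 47.3) and 3.28 to 30.5 CPM in muscle (median 7.95). The ranges overlapped, but adipose was higher in 8 of 8 pairs, with a log2 ratio of 2.22 ± 0.30 (SE, edgeR quasi-likelihood adjusted p = 9.44e-06). SIGLEC1, a sialic acid receptor of tissue macrophages, measured 3.69 to 16.03 CPM in adipose and 0.626 to 4.09 CPM in muscle (log2 ratio 2.51 ± 0.34, SE), and the muscle library of calf 2 lay above the lowest adipose library, that of calf 8. CSF1, the growth factor that macrophages depend on, measured 19.4 to 59.2 CPM in adipose and 8.37 to 32.9 CPM in muscle, and at 1.17 ± 0.17 (SE) on the log2 scale had the smallest ratio called in favour of adipose among the loci with a symbol. CFD, complement factor D or adipsin, which adipocytes secrete, measured 8.57 to 57.6 CPM in adipose and 1.80 to 10.6 CPM in muscle (2.199 ± 0.21, SE). Adipose was higher in 8 of 8 pairs at these 4 genes. C1S, a protease of the classical pathway, measured 37.4 to 116 CPM in adipose and 25.9 to 147 CPM in muscle and was not called (0.43 ± 0.23, SE, adjusted p = 0.11), and without calves 1 and 2 it was called at 0.83 (edgeR quasi-likelihood adjusted p = 0.00192). CR2, the complement receptor of B cells and follicular dendritic cells, was the called member of the lymphocyte pair, at 1.46 to 14.6 CPM in adipose against 0.313 to 6.197 CPM in muscle (1.83 ± 0.42, SE). It too was listed as lower in the muscle of 5-HTP calves, and its log2 ratio in the CON pairs was 1.38 ± 0.55 (SE). FUT7, a fucosyltransferase that builds selectin ligands on leukocytes, was not called at 1.33 ± 0.72 (SE), with at most 6 counts in any muscle library.

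**Figure D3:**
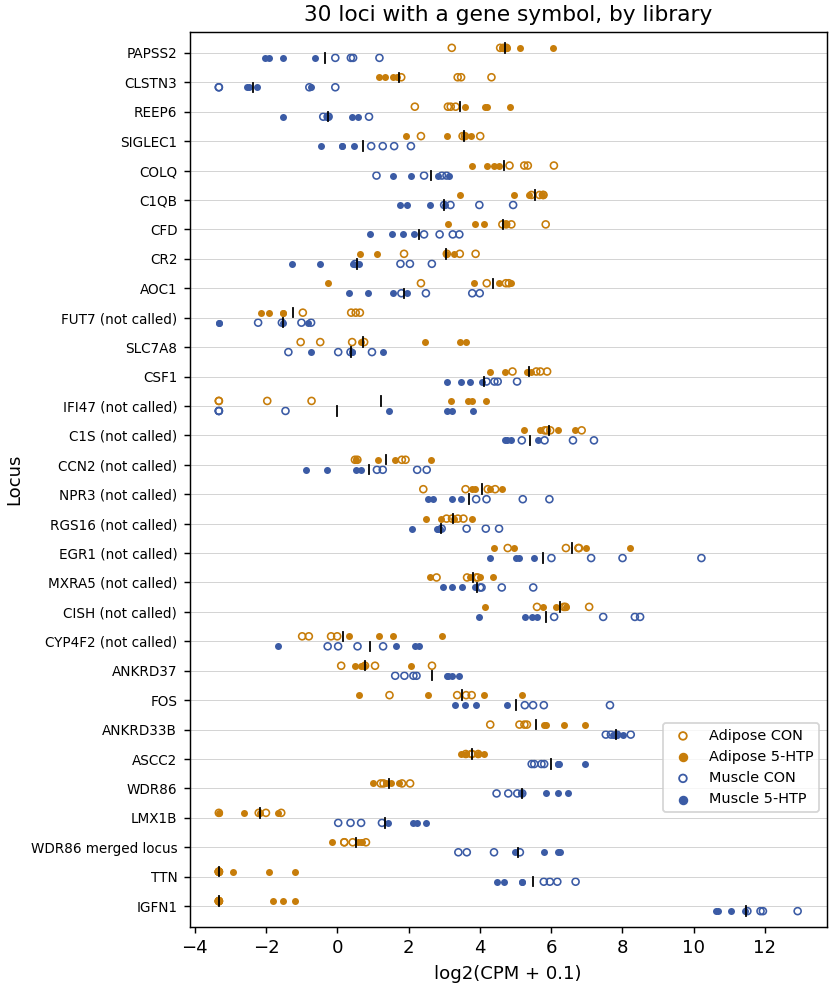
Level of the 30 loci with a symbol in each library, as log2 of CPM plus 0.1 (x axis), with adipose in orange, muscle in blue, CON as open and 5-HTP as filled points, and short bars at the tissue medians. Loci are ordered by fitted log2 ratio from IGFN1 (−14.83) to PAPSS2 (5.10), and the tissues overlap at every locus from FOS to C1QB in this order.

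Among the loci with a symbol, the largest ratios in favour of adipose belonged to PAPSS2, CLSTN3 and REEP6, which are in none of the lists. PAPSS2, which makes the sulfate donor PAPS, measured 9.18 to 66.5 CPM in adipose (median 26.02) and 0.144 to 2.17 CPM in muscle (median 0.705), a log2 ratio of 5.10 ± 0.46 (SE, edgeR quasi-likelihood adjusted p = 7.97e-08). CLSTN3, the adhesion protein calsyntenin 3, measured 2.14 to 19.98 CPM in adipose and 0 to 0.863 CPM in muscle, where 2 libraries had 0 counts and none had more than 13 (4.58 ± 0.60, SE). REEP6, a protein that shapes the endoplasmic reticulum, measured 4.42 to 28.9 CPM in adipose and 0.251 to 1.75 CPM in muscle (3.71 ± 0.34, SE). No muscle library reached the lowest adipose library at these 3 genes. CLSTN3 met the count filter in adipose and not in muscle, so its separation is only a description. COLQ was the 1 gene of the 19 excitation-contraction genes listed that could be matched. It encodes the collagen tail that anchors acetylcholinesterase at the neuromuscular junction, and measured 13.7 to 67.5 CPM in adipose and 2.05 to 8.61 CPM in muscle, without overlap (2.37 ± 0.34, SE). Its counts stand under 2 Ensembl identifiers in the files, both of which the study names COLQ. The study had listed REEP6 as higher, and CLSTN3 and COLQ as lower, in the adipose of 5-HTP calves, in these same libraries. It listed PAPSS2 as lower in their muscle. In the CON pairs alone the log2 ratios were 3.90 at PAPSS2, 5.08 at CLSTN3, 3.07 at REEP6 and 2.93 at COLQ.

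Calls at AOC1 and SLC7A8 depended on single calves. AOC1, the diamine oxidase that degrades histamine, measured 0.729 to 29.5 CPM in adipose (median 20.6) and 1.17 to 15.9 CPM in muscle (median 3.58), and 6 of 8 pairs were higher in adipose (log2 ratio 1.68 ± 0.62, SE, edgeR quasi-likelihood adjusted p = 0.0256). Its call was lost without any 1 of calves 3 to 7 (adjusted p 0.0655 to 0.0768). AOC1 had been listed as lower in the muscle of 5-HTP calves, and its log2 ratio in the CON pairs was 1.07 ± 0.79 (SE). The study names a merged locus SLC7A8, after a transporter of neutral amino acids. This locus measured 0.391 to 12.2 CPM in adipose and 0.287 to 2.35 CPM in muscle. In 7 of 8 pairs it was higher in adipose (1.18 ± 0.49, SE, edgeR quasi-likelihood adjusted p = 0.0463). Without calf 1, 4, 5, 7 or 8 it was not called (adjusted p 0.0511 to 0.161 by edgeR's quasi-likelihood test). Its log2 ratio was −0.11 ± 0.54 (SE) in the CON pairs and 2.32 ± 0.53 (SE) in the 5-HTP pairs, and its mean in adipose was 0.958 CPM in CON and 7.49 CPM in 5-HTP calves. Besides C1S, EGR1 and FUT7, the loci not called were CYP4F2, CISH, MXRA5, RGS16, NPR3, CCN2 and IFI47, with log2 ratios from −0.40 to 0.82. At 8 of the 10 loci not called, the ratio was on the side of muscle in the CON pairs and on that of adipose in the 5-HTP pairs. Examples are CISH, a suppressor of cytokine signalling, at −1.27 and 0.56, NPR3, the natriuretic peptide clearance receptor, at −1.06 and 1.17, MXRA5 at −0.98 and 0.31, and CCN2, a matrix-associated growth regulator, at −0.61 and 1.55. All 10 had been listed for a difference between 5-HTP and CON calves in these same libraries, so this turn is no independent evidence. Over all loci tested, 88.9% had the same sign in both treatments. IFI47, an interferon-induced GTPase, measured 8.95 to 18.1 CPM in the adipose of 5-HTP calves and 0 to 0.507 CPM in that of CON calves, with 2.66 to 13.9 and 0 to 0.266 CPM in muscle, so its levels separated by treatment in both tissues, which was the reason it had been listed.

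Few loci were counted in 1 tissue alone. By the rule of at least 10 counts in all 8 libraries of a tissue and at most 3 in each library of the other, 272 loci were counted only in adipose and 223 only in muscle. They held 0.518% to 0.607% of the adipose counts and 0.602% to 0.795% of the muscle counts. Their median level was 3.69 and 3.20 CPM of total counts, and 10 of the adipose and 17 of the muscle loci reached 100 CPM. Of the adipose loci 109 had an Ensembl identifier (163 had a merged number only), and of the muscle loci 98 (125 merged). None was a locus with a symbol, and 103 of the adipose loci and 102 of the muscle loci had 0 counts in all 8 libraries of the other tissue. A count of 0 allows up to 3 counts, and such intervals cover counting error only. Without the adipose library of calf 2 and its pair, the adipose number rose to 408, and without calves 1 and 2 to 453, against 267 in muscle. By a looser measure, 10 counts or more in 4 or more libraries of a tissue, 18872 loci were detected in adipose and 15624 in muscle. The 14460 detected in both were 76.6% of the adipose loci and 92.5% of the muscle loci. For loci with a merged number only these shares were 40.5% and 72.5%.

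The tissue ratio was compared between the CON pairs and the 5-HTP pairs, which share no library. Over the 20534 loci the fitted ratios had a Pearson correlation of 0.95 and a Spearman correlation of 0.92, given as a description over loci, which are not replicates. Of the loci, 88.9% had the same sign in both treatments, the median absolute difference of the log2 ratios was 0.32, and 84.2% agreed within 2-fold. At the 12998 loci with a mean of at least 1 CPM in each tissue 97.3% did. In the CON pairs alone 10135 loci were called (49.4%) and in the 5-HTP pairs alone 10230 (49.8%). The 8595 called in both were 84.8% of the former and 84.0% of the latter, and 2 of them pointed in opposite directions. Spread between calves was larger in CON, with a median SD of log2 CPM of 0.38 in adipose and 0.36 in muscle, than in 5-HTP, with 0.28 and 0.21. This comparison was not tested, and the libraries of calves 1 and 2 that stood apart are both in CON.

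No locus had a tissue ratio that differed between treatments at an FDR at or under 0.05 by edgeR's quasi-likelihood test. At an unadjusted p at or under 0.05 there were 595 (2.9%), the likelihood ratio test of edgeR called 9 and DESeq2 called 2. Of the 30 loci with a symbol, 16 had an unadjusted p at or under 0.05, and all 30 had been listed for an effect of 5-HTP on these libraries, so this count is no independent evidence. PAPSS2 had the lowest adjusted p of them, 0.44. Its level was 9.18 to 26.8 CPM in the adipose and 0.863 to 2.17 CPM in the muscle of CON calves, and 24.3 to 66.5 and 0.144 to 0.547 CPM in those of 5-HTP calves. The log2 ratio was thus 3.90 ± 0.36 (SE) in CON and 7.02 ± 0.45 (SE) in 5-HTP pairs, in favour of adipose in both. At the merged locus of WDR86 the ratio was −3.84 ± 0.27 (SE) in CON and −5.47 ± 0.28 (SE) in 5-HTP pairs. The muscle libraries held 10.4 to 34.8 CPM in CON and 31.9 to 76.1 CPM in 5-HTP, and the adipose libraries 0.807 to 1.65 CPM over both. The locus with the lowest p in favour of 5-HTP measured at most 4.50 CPM in any library, with a log2 ratio of −3.48 ± 1.10 (SE) in CON and 6.12 ± 1.19 (SE) in 5-HTP pairs and an adjusted p of 0.317 by edgeR's quasi-likelihood test. Counts there were few, and 0 in 6 of the 16 libraries. At 22 loci (0.107%) every CON pair had the opposite sign of every 5-HTP pair, and none of them had a symbol.

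**Figure D4:**
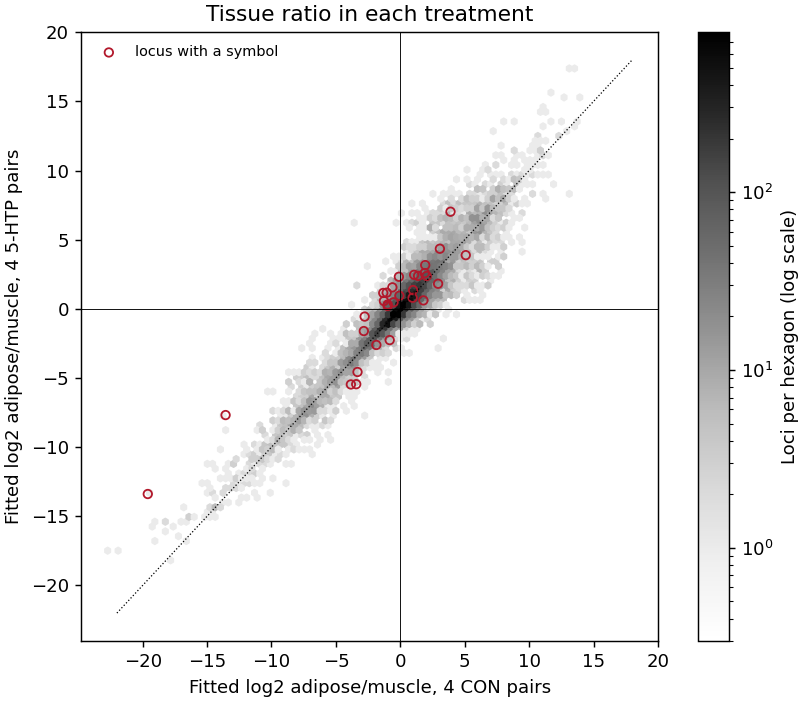
Fitted log2 ratio of adipose over muscle in the 4 5-HTP pairs (y axis) against that in the 4 CON pairs (x axis), as hexagons shaded by the number of loci on a log scale, over the 20534 loci tested. The loci lie along the dotted line of equal ratios (Pearson correlation 0.95), and the red circles of IGFN1 and TTN at the lower left stand off it. All 4 CON adipose libraries had 0 counts there, and their ratio in CON is set by the constant added by the fit.

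Individual calves could be recognised across tissues at variable loci. At the 60 loci whose log2 CPM had an SD of at least 1.5 in each tissue, the deviations of an adipose library from its tissue mean correlated with those of the muscle library of the same number at 0.66 to 0.88, and with those of other numbers at −0.37 to 0.28. Each of the 8 adipose libraries correlated best with the muscle library of its own number, and each muscle library likewise. Over all 14460 loci detected in both tissues, deviations were taken from the mean of each tissue and treatment. The 60 loci used the tissue mean alone, which keeps differences between treatments, so the values are not directly comparable. The correlations with the same number over the 14460 loci were small, from −0.16 to 0.26 with a mean of 0.12, and those of calves 1 and 2 were under 0. Within a treatment, 6 adipose and 6 muscle libraries correlated best with their own number. Tissue outweighed the calf by far. The first principal component held 75.7% of the variance and separated all adipose from all muscle libraries. The median absolute log2 difference between the tissues of the same calf was 0.73 to 0.91 (median 0.75). Between an adipose and a muscle library of different calves it was 0.69 to 0.96 (median 0.76). For 2 adipose libraries it was 0.22 to 0.63, and for 2 muscle libraries 0.20 to 0.57.

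**Figure D5:**
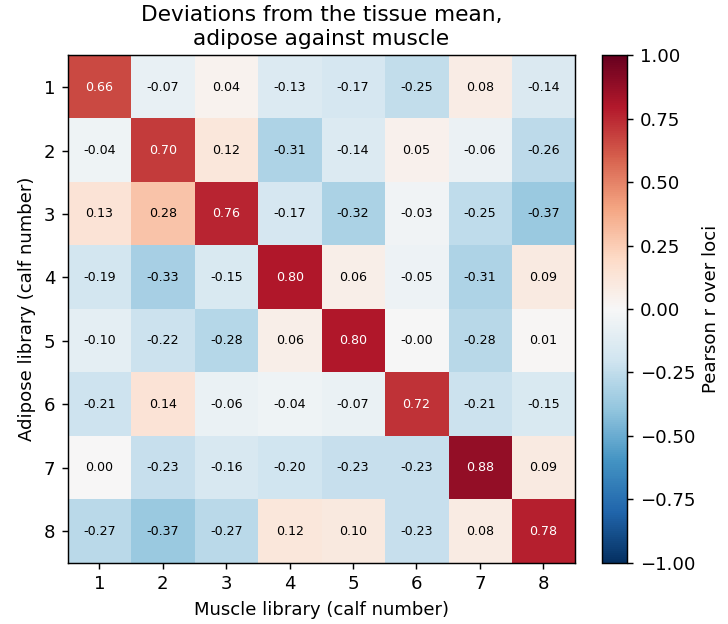
Pearson correlation between the deviations of each adipose library (rows, by calf number) and each muscle library (columns) from its tissue mean, over the 60 loci with an SD of at least 1.5 log2 CPM in each tissue. The diagonal, which pairs libraries of the same number, runs from 0.66 to 0.88, and all cells off the diagonal lie between −0.37 and 0.28.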

How the data were processed

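Poly-A RNA of adipose and muscle was sequenced as paired-end reads and processed by the authors before deposit. Per the submitters' processing notes, reads were checked with FastQC 0.11.7, trimmed with Trim Galore 0.4.4, mapped to ARS-UCD1.2 by HISAT2, built into merged transcript models by Cufflinks 2.2.1, and counted with HTSeq. The strand setting is not given in the sources used here, so antisense pairs cannot be told apart. The deposited values are whole-number counts without normalization, 1 table per library, with 44265 identifiers. Of the 42862 loci, 1166 stand under more than 1 Ensembl identifier with the same counts, and each locus was used once. Locus totals were 15058963 to 25077800 counts per library, at which 3 counts, the limit that a count of 0 allows, are 0.12 to 0.20 CPM of total counts. TMM scaling moves this limit down in adipose and up in muscle. In calf 8, for example, 3 counts of FUT7 were 0.129 CPM in adipose and 0.251 CPM in muscle.

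Groups follow the tissue and treatment labels, and the number in each title was taken as the calf. The study's methods compare treatments within a tissue and do not state a model for this comparison. Loci that reached 10 counts in 4 or more libraries were tested with edgeR 4.0.16 in R 4.3.3 (TMM, quasi-likelihood F test, calf as a block, Benjamini-Hochberg adjustment, FDR at or under 0.05), and the tissue by treatment term in the same model with 1 tissue ratio per treatment. Standard errors are the log2 ratio fitted without the small added constant, divided by the root of F. The printed log2 ratios include that constant, so the 2 differ most at loci with counts of 0. Single measures were compared over the 8 pairs by an exact two-sided sign-flip permutation test. Log2 CPM of single libraries had a prior count of 2 for the direction of pairs and for the correlations over 14460 loci. For the distances, principal components, spread between calves, variable loci and loci of opposite sign, 0.1 CPM was added before log2. The distances and the spread between calves used the 12998 loci with a mean of at least 1 CPM in each tissue. The numbers pair the libraries, since every library correlated best with its own number at variable loci, a set of loci chosen after seeing the data. No 2 libraries of a group agreed within sampling noise (lowest chi-square per degree of freedom 23.5 over 24 pairs). The fitting steps were also run on simulated counts, in which most loci had the same mean in both tissues. That simulation could not test the scaling between tissues. DESeq2 1.42.0 was an alternative, and figures used Python 3.11.15 with matplotlib 3.10.9.

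Loci were named by a rule: members of the gene lists, the 10 loci with the largest mean share in each tissue, the loci that the study's supplementary tables pair with a symbol, and the 3 loci with the smallest p of the tissue by treatment term in each direction, with at most 2 identifiers per direction for loci without a symbol. The comparison, the members and the lists were chosen with earlier results of these data known. The RefSeq gene table used here, of ARS-UCD2.0, holds 0 Ensembl identifiers, and no coordinates or sequences were used.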

Additional observations from a re-analysis of the deposited data

Results flagged for a closer look

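In groups of 4 libraries, the highest or the lowest library was compared with its neighbour by Dixon's ratio, with a 95% critical value of 0.829. Of 168 groups tested, 15 held such a library. About 1 in 20 groups is expected by chance, and the measures share libraries, so the groups are not independent.

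Among the measures of whole libraries, the adipose library of calf 2 had 24592 loci with at least 1 count after thinning, against at least 28601 in the other CON adipose libraries. The TMM factor of the muscle library of calf 1 was 0.537, against at least 0.682 in the other CON muscle libraries. In the muscle library of calf 5, 24197 loci had at least 1 count and 14885 had at least 10 counts after thinning, the highest of the 5-HTP muscle libraries. The loci counted only in adipose held 0.000554% of the counts of the muscle library of calf 2, against at most 0.000363% in the other CON muscle libraries.

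Among the loci with a symbol, on the scale of log2 of CPM plus 0.1, PAPSS2 was at 3.21 in the adipose library of calf 2 (9.18 CPM), the lowest of CON adipose, and C1S at 6.86 in that of calf 1 (116 CPM), the highest. FUT7 was lowest in the adipose library of calf 3 at −0.97, with 11 counts. The merged locus of WDR86 was lowest in the adipose of calf 6 at −0.14, with 26 counts. In muscle, ASCC2 was highest in calf 5 at 6.96 (124 CPM) and RGS16 was lowest in calf 7 at 2.11. The remaining 4 rest on few counts. CYP4F2 was at −1.66 in the muscle of calf 6 with 3 counts, IFI47 at −1.45 in that of calf 3 with 4 counts, REEP6 at 0.89 in that of calf 1 with 21 counts, and CLSTN3 at −0.73 in that of calf 8 with 6 counts.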

How the results depend on the processing

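The replicate block changed little. With no replicate block 7246 loci were higher in adipose and 6230 in muscle, and none of the 30 loci with a symbol changed its call. Total counts in place of TMM moved most results, to 14557 loci higher in adipose and 2361 in muscle (12006 and 1892 at least 2-fold) and a median log2 ratio of 1.34. With total counts RGS16, not called before, changed from −0.03 to 1.18 and MXRA5 from −0.34 to 0.87, both then higher in adipose, and no called locus with a symbol changed direction. When 10 counts in 4 libraries were required in each tissue, 2712 and 2480 loci differed at least 2-fold, with a median of 0.028. With no filter the median was 0.53, the correlation of the ratios between treatments 0.81, and 40 loci had a ratio that differed between treatments, against 9 by the likelihood ratio test and 2 by DESeq2. With Ensembl loci only, chosen after seeing the data for the fits, 3235 loci were at least 2-fold higher in adipose and the median was 0.060. Loci counted only in 1 tissue numbered 109 in adipose and 98 in muscle among Ensembl loci, and 103 and 102 when 0 counts were required in the other tissue. Leaving out each calf in turn gave 6396 to 7531 loci higher in adipose, 5679 to 6256 in muscle, and 285 to 408 counted only in adipose. Without calves 1 and 2, a choice made after seeing the data, 453 loci were counted only in adipose. For the loci with a symbol, 19 of 30 kept their side of the threshold under every alternative, and of 556 values 16 lost a call, 15 gained 1 with the same sign and 2 with the opposite sign (RGS16 and MXRA5 with total counts). The sign turned in 28 values, at CISH, CYP4F2, EGR1, MXRA5, NPR3 and RGS16, which are not among the 20 loci called above, and 5 of these values were with total counts. The cause of these shifts was not tested. Depth limits loci near 3 counts per library, such as LMX1B and TTN in adipose.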
